A study of Mus musculus with 6 samples.

Results

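Mitochondrial protein import genes were studied in cells of bronchoalveolar lavage fluid, obtained by rinsing mouse airways and alveoli with saline. They were taken as all genes whose symbols begin with Timm, Tomm or Chchd followed by a digit, which gave 33 of the 22800 genes in the deposited table. RNA was sequenced from vehicle-treated mice (3 libraries, replicates 2, 3 and 4) and from mice injected into the peritoneal cavity with 20 µg of sulfatide (3 libraries, replicates 1, 2 and 3). Sulfatide, a sulfated galactosylceramide abundant in myelin, is a CD1d-bound antigen of type II natural killer T cells. The make-up of the vehicle, the mouse strain, age and sex, and whether lungs had undergone ischemia and reperfusion were not given in the sources used here. Nothing in the labels says that the libraries came from separate animals, so p-values reflect the spread between these 6 libraries only, and that spread may be technical.

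Nearly all mitochondrial proteins are encoded in the nucleus, made in the cytosol and imported. The TOM complex is the entry gate of the outer membrane. Behind it, small TIM chaperones carry hydrophobic proteins across the space between the membranes to the TIM22 complex, and the TIM23 complex moves proteins with a presequence into the inner membrane or the matrix. Chchd4 encodes MIA40, the oxidoreductase that traps cysteine-rich proteins in that space. Many of its substrates carry twin CX9C motifs, pairs of cysteines separated by 9 other residues, and the other Chchd genes encode proteins of this kind. Not all members are import machinery: Chchd1 encodes a protein of the mitochondrial ribosome, Chchd3 and Chchd6 encode proteins of the cristae-organizing MICOS complex, and Tomm34 encodes a cytosolic co-chaperone. Macrophages rely on mitochondria for energy and for signals in inflammation.

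Values are FPKM (fragments scaled by transcript length and by library size). They summed to 1126779 to 1168474 in vehicle libraries and to 1217971 to 1249691 in sulfatide libraries. Pearson correlations of log2 values across genes were 0.990 to 0.995 within groups and 0.967 to 0.982 between them. All 12 macrophage markers examined were above 0 in at least 1 library and summed to 27132 to 38465 FPKM, and Itgax was the 1 of 10 tested that fell (none rose). Markers of T, NKT and NK cells summed to at most 0.38 FPKM in any library (6 of 10 at 0 in all 6), and those of lung epithelium to at most 0.45 (3 of 8 at 0). B cell markers summed to at most 1.40 FPKM, with 3 of 5 at 0. Endothelial and stromal markers summed to 39.0 to 55.95 FPKM, and Pdgfrb was the 1 of 5 tested that fell.

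Of the 33 genes, 31 passed the level for testing, at least 1 FPKM in at least 3 libraries. Timm8a2 was listed at 0 in all 6 libraries, and Tomm20l at 0 in all but sulfatide replicate 3 (0.20 FPKM). Sulfatide libraries had higher levels of 5 of the 31 tested genes (16.1%), namely Timm10b, Tomm6, Timm8a1, Timm17b and Tomm7, and lower levels of none (limma, adjusted p below 0.05). Among all 10405 genes tested, 8.31% were called higher and 10.4% lower. At an unadjusted p below 0.05, 12 of the genes were higher and 1 lower, beside 18% and 15.8% of all genes tested. These shares are the background of the unadjusted counts of every group. The 5 rises were small, 1.30 to 1.48-fold. Log2 fold changes were positive for 26 of the 31 genes, for 23 after rescaling each library to a common sum (TPM) and for 21 after removal of a trend on transcript length, where all genes tested had 55.3%, 40.3% and 51.4%. Their median was 0.23 (0.12 on the TPM scale, and 0.10 without the length trend), beside 0.04 (-0.06 and 0.01) over all genes tested.

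Some calls depended on the scale. On the TPM scale, Timm10b and Tomm6 were higher (background 4.49%), while Timm17a and Timm23 were lower (background 14.7%). Of all called genes, 44.5% were higher on the FPKM scale and 23.4% on the TPM scale. In 8 of the 31 genes (25.8%) each sulfatide library lay above each vehicle library, against 18.6% of all genes tested. The reverse order was found in none of the 31 and in 18.3% of all genes. After rescaling to TPM, 4 of the 31 lay above (Timm10b, Tomm6, Timm17b and Timm8a1; 10.7% of all genes) and 3 below (Timm17a, Timm29 and Timm23; 27.4%). Levels also differed within groups. Vehicle replicate 3 was the highest vehicle library for 29 of the 31 genes, sulfatide replicate 1 the highest sulfatide library for 22, and sulfatide replicate 2 the lowest for 20. The number of genes called higher was 13 when vehicle replicate 3 was left out (13.7% of all genes) and 5 when sulfatide replicate 2 was (7.74%). It was 1 when any of the other 4 libraries was left out, and calls over all genes fell as well, to 2.58% and 4.15% without vehicle replicates 2 and 4 and to 3.4% and 4.32% without sulfatide replicates 1 and 3. With any library other than vehicle replicate 3 left out, no import gene beyond the 5 named above was called. Values given below without vehicle replicate 3 come from the leave-out fit that called the largest share of all genes higher. Timm10b was the only one of the 5 called higher under all 17 alternatives. In bulk RNA, fewer cells of a type and less RNA per cell cannot be told apart.

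**Figure D1:**
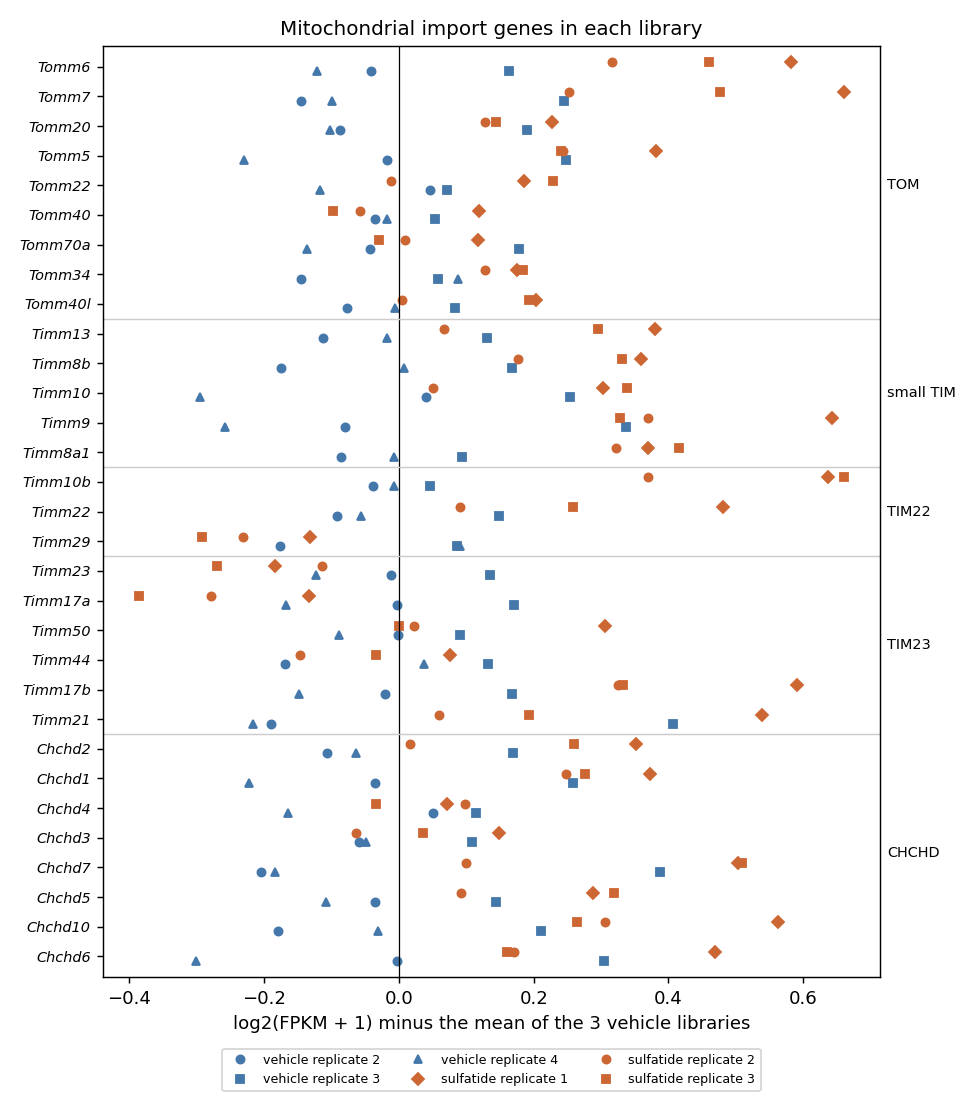
Each row is 1 of the 31 tested genes and each point 1 library, plotted as log2(FPKM + 1) minus the mean of the 3 vehicle libraries, with vehicle in blue and sulfatide in orange. In 8 rows all orange points lie to the right of all blue points, and vehicle replicate 3 (blue squares) is the highest vehicle library in 29 rows.

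Of 9 tested TOM genes 2 rose and none fell (3 and 0 at an unadjusted p below 0.05). Both encode small accessory subunits, and the pore and receptors did not pass the test. Tomm6 encodes a small subunit that stabilizes the complex. It was at 390, 449.5 and 369 FPKM in vehicle replicates 2, 3 and 4 and at 602, 500.3 and 553 in sulfatide replicates 1, 2 and 3. The groups did not overlap, and the rise was 1.37-fold (log2 fold change 0.45 ± 0.10 SE, adjusted p = 0.0175). Tomm7, which encodes a small subunit that modulates assembly of the complex and takes part in keeping PINK1 at the outer membrane, was at 360.2, 472 and 372 FPKM in vehicle and at 631, 475 and 555 in sulfatide. Vehicle replicate 3 and sulfatide replicate 2 nearly touched (472.42 and 474.74 FPKM), and the rise was 1.38-fold (0.46 ± 0.13, adjusted p = 0.0423, and 0.0757 on the TPM scale). Without vehicle replicate 2, vehicle replicate 4, sulfatide replicate 1 or sulfatide replicate 3, adjusted p was 0.0811, 0.0625, 0.0627 and 0.0609 for Tomm6 and 0.167, 0.129, 0.135 and 0.109 for Tomm7.

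Tomm40 encodes the channel itself. Its levels were 70.6, 75.1 and 71.4 FPKM in vehicle and 78.7, 69.5 and 67.5 in sulfatide, so the vehicle range lay inside the sulfatide range (log2 fold change -0.01 ± 0.09, adjusted p = 0.939). Tomm20, the receptor for presequences, was at 296, 359 and 293 FPKM in vehicle and at 368, 344 and 348 in sulfatide (0.17 ± 0.10, adjusted p = 0.259, and 0.0459 without vehicle replicate 3). For the central receptor Tomm22 the values were 231, 235 and 206 FPKM and 255, 222 and 263 (0.13 ± 0.09, adjusted p = 0.348). Tomm70a, the receptor for carrier proteins, was at 61.8, 72.2 and 57.8 FPKM and at 69.1, 64.1 and 62.4 (0.03 ± 0.10, adjusted p = 0.853, and -0.08 on the TPM scale). In each of these genes the groups overlapped. The third small subunit, Tomm5, averaged 277 ± 46.4 FPKM after vehicle and 336 ± 19.2 after sulfatide (SD, n = 3 each), with 326.47 FPKM in vehicle replicate 3 above 2 of the 3 sulfatide libraries (adjusted p = 0.126, and 0.0157 without vehicle replicate 3). Tomm34 and the channel paralogue Tomm40l had adjusted p of 0.253 and 0.361.

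Levels within the TOM complex, in mean FPKM of the vehicle libraries, which is scaled to length, ran from 403 ± 41.8 for Tomm6 and 402 ± 61.7 for Tomm7, which did not differ beyond their spread, through Tomm20 (316 ± 37.3), Tomm5 and Tomm22 (224 ± 15.6) to Tomm40 (72.4 ± 2.41) and Tomm70a (63.9 ± 7.42). The ranges of the vehicle libraries overlapped for Tomm20 and Tomm5, for Tomm5 and Tomm22 and for Tomm40 and Tomm70a. Within each library, though, Tomm20 was above Tomm5, Tomm5 above Tomm22 and Tomm40 above Tomm70a. In sulfatide the means of Tomm6 (552 ± 50.7 FPKM) and Tomm7 (554 ± 77.9 FPKM) were again close, and the other genes kept this order.

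Of the 5 tested small TIM chaperones 1 rose and none fell (4 and 0 at an unadjusted p below 0.05, beside 18% and 15.8% of all genes). All 5 log2 fold changes were positive, also on the TPM scale, but those of Timm13 (-0.0372), Timm10 (-0.0298) and Timm8b (-0.00294) were negative after removal of the length trend. Timm8a1, on the X chromosome, is the mouse counterpart of the gene for deafness-dystonia peptide, whose product works with that of Timm13. Timm8a1 was at 27.1, 30.8 and 28.7 FPKM in vehicle and at 37.5, 36.3 and 38.8 in sulfatide, with no overlap and 1.30-fold higher (0.37 ± 0.09, adjusted p = 0.0226). Adjusted p was 0.0608 on the TPM scale and 0.0554 without the length trend, and 0.103, 0.0642, 0.0706 and 0.0915 without vehicle replicate 2, vehicle replicate 4, sulfatide replicate 1 and sulfatide replicate 3.

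Timm9 and Timm10, whose products form the chaperone ring for carrier proteins, did not pass. Timm9 was at 52.3, 70.2 and 46.1 FPKM in vehicle and at 86.9, 71.8 and 69.7 in sulfatide, where vehicle replicate 3 lay above sulfatide replicate 3 (0.45 ± 0.15, adjusted p = 0.0739, and 0.00678 without vehicle replicate 3). Timm10 averaged 87.9 ± 16.6 and 102 ± 10.9 FPKM (SD, n = 3 each) and gave an adjusted p of 0.286. Timm8b did not overlap between groups (138 to 175 FPKM in vehicle and 176 to 201 in sulfatide), with an adjusted p of 0.0845, and 0.0249 without vehicle replicate 3. Timm13 was the most abundant of the group, at 302 ± 26.0 FPKM after vehicle and 359 ± 39.5 after sulfatide (SD, n = 3 each, adjusted p = 0.134).

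Timm10b, which encodes the small TIM (Tim9b) that docks the chaperone ring on the TIM22 complex, showed the largest log2 fold change of the 31 genes on the FPKM scale. It was at 162, 172 and 166 FPKM in vehicle and at 259, 215 and 264 in sulfatide. The groups stood well apart, and the rise was 1.48-fold (0.56 ± 0.10, adjusted p = 0.00425). Adjusted p was 0.00773 on the TPM scale and at most 0.0345 under any alternative. The gene lies on chromosome 7 at 105640056 to 105643637 (mm10, GENCODE M21). Another gene on the same strand, Gm45799, shares 368 exon bases with it, so how fragments were split among the pair is uncertain. The neighbouring gene on the opposite strand, Arfip2, overlaps 172 exon bases and stayed between 29.0 and 31.9 FPKM in all 6 libraries. Tomm6 (chromosome 17, 47686646 to 47688386) shares 656 exon bases, 81.7% of its own, with the same-strand gene Gm21981 and 219 with the antisense gene Tomm6os, so its division of fragments is uncertain too.

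Other genes of the TIM22 complex did not pass. Timm22, the channel, was at 32.7, 38.8 and 33.5 FPKM in vehicle and at 49.1, 37.3 and 41.95 in sulfatide, with overlap at vehicle replicate 3 (0.28 ± 0.12, adjusted p = 0.142). Timm29, a metazoan subunit of the complex, was at 10.7, 13.1 and 13.1 FPKM in vehicle and at 11.1, 10.3 and 9.84 in sulfatide (-0.22 ± 0.11, adjusted p = 0.214, and 0.0782 on the TPM scale).

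**Figure D2:**
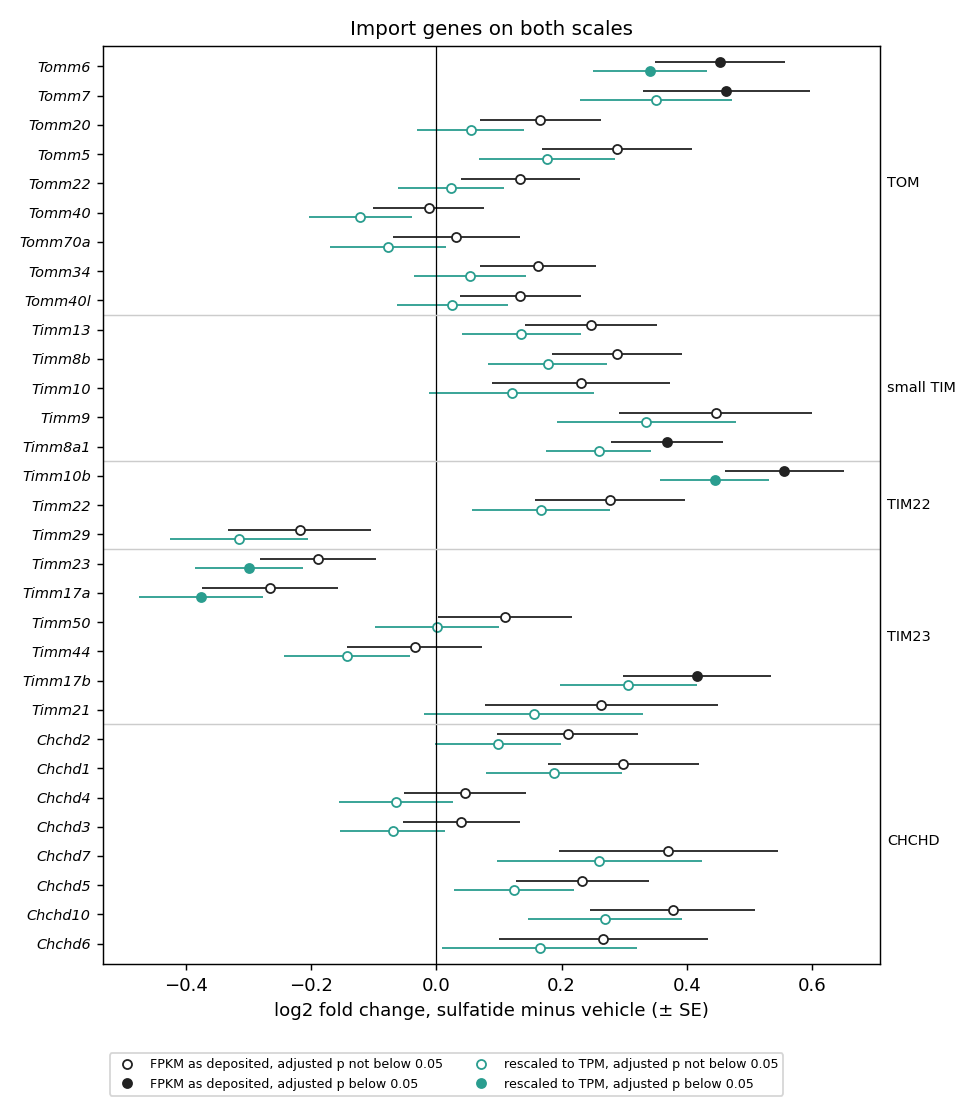
Log2 fold changes of the 31 tested genes (sulfatide minus vehicle, bars ± SE) on the log2(FPKM + 1) scale (black) and after rescaling to TPM (green); filled points had an adjusted p below 0.05 by limma. Filled black points mark 5 rises, and filled green points 2 rises (Timm10b, Tomm6) and 2 falls (Timm17a, Timm23).

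Of 6 TIM23 genes 1 rose and none fell (1 and 1 at an unadjusted p below 0.05). Timm17a and Timm17b are alternative subunits of its channel. Timm17b was at 21.7, 24.9 and 19.8 FPKM in vehicle and at 33.7, 27.9 and 28.1 in sulfatide, with no overlap and 1.35-fold higher (0.42 ± 0.12, adjusted p = 0.0408, and 0.0820 on the TPM scale). Without vehicle replicate 2, vehicle replicate 4, sulfatide replicate 1 or sulfatide replicate 3 the adjusted p was 0.132, 0.130, 0.142 and 0.0778. Timm17a was at 130.1, 147 and 116 FPKM in vehicle and at 119, 107 and 99.6 in sulfatide, and only sulfatide replicate 1 reached into the vehicle range (-0.27 ± 0.11, adjusted p = 0.121). Timm17a was lower on the TPM scale (-0.38 ± 0.10, adjusted p = 0.0300). After removal of the length trend the log2 fold change was -0.18 for Timm17a (adjusted p = 0.307) and 0.39 for Timm17b (adjusted p = 0.0306).

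A ratio of genes within a library is free of the scaling of that library, but not of a trend on transcript length. Timm17b has 2381 nucleotides and Timm17a 7280, and the part of length in their ratio was not tested. Timm17b stood to Timm17a as 0.167, 0.170 and 0.171 in vehicle replicates 2, 3 and 4, and as 0.284, 0.260 and 0.282 in sulfatide replicates 1, 2 and 3. The ratio was thus 0.169 ± 0.00191 after vehicle and 0.275 ± 0.0135 after sulfatide (SD, n = 3 each), 1.63-fold higher, and vehicle replicate 3, the highest vehicle library in both genes, lay between the other vehicle libraries. The 2-sided exact permutation test gave p = 0.1, the smallest that 3 against 3 libraries allow (0.25 adjusted over 5 pairs of related genes). Of the other pairs, Tomm40l to Tomm40 also did not overlap (0.425 ± 0.0114 and 0.473 ± 0.0434, exact p = 0.1). Its gap was narrow, from 0.434 in vehicle to 0.444 in sulfatide. Tomm40l shares 2160 exon bases, 45.5% of its own, with the opposite-strand gene Nr1i3 (2.02 to 3.77 FPKM). Tomm40 shares 15.4% with an antisense gene, so the division of fragments is uncertain in both. Timm8a1 to Timm8b, Chchd10 to Chchd2 and Chchd6 to Chchd3 overlapped (exact p = 0.2, 0.3 and 0.2). The pairs were chosen with earlier results of these data known.

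**Figure D3:**
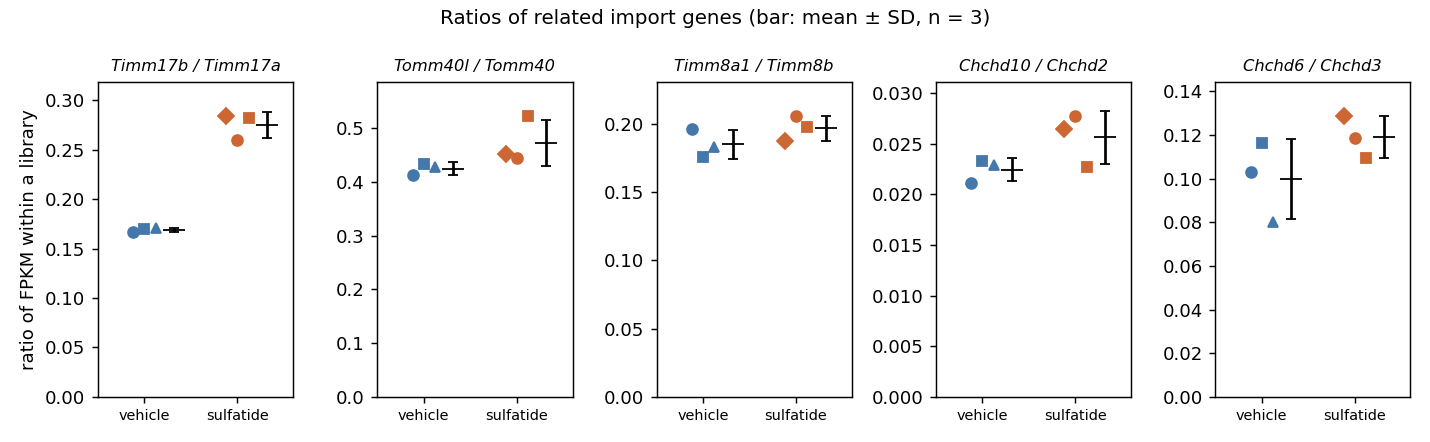
Ratios of FPKM of 5 pairs of related import genes within each library (points, vehicle in blue and sulfatide in orange, with symbols by replicate number) and the mean ± SD of each group (n = 3). Timm17b to Timm17a was 0.167 to 0.171 in vehicle and 0.260 to 0.284 in sulfatide, the widest gap between groups of the 5 pairs.

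Stretches upstream of Timm17b and Timm17a are shown because the ratio of these genes had the widest gap between groups, that of Timm8a1 as another called gene, and that of Timm23 for its match to an ETS motif. They come from RefSeq (GRCm38.p6), 5′ to 3′ on the gene's strand, limited to bases outside exons annotated in GENCODE M21. Their last bases lie 1 (Timm17b), 42 (Timm17a), 196 (Timm8a1) and 8 (Timm23) bases before the RefSeq start. Capitals mark CACGTG (E-box) or CCGGAAG (ETS, here as its complement CTTCCGG).
Timm17b, chrX:7899270-7899335, plus strand: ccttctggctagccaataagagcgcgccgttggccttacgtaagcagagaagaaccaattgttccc
Timm17a, chr1:135313779-135313987, minus strand: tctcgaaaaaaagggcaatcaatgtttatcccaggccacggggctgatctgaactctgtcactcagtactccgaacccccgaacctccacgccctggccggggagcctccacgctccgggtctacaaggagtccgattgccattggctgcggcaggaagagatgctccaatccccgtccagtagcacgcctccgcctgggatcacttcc
Timm8a1, chrX:134541866-134541920, minus strand: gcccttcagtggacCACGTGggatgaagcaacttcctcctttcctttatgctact
Timm23, chr14:32201899-32201948, minus strand: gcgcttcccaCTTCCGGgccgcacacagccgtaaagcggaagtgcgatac

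Motifs of factors known to act on mitochondrial genes were searched on both strands in the 250 bases before the start, for the 28 members in the RefSeq table. CCGGAAG was present in 10 of the 28 (35.7%) and in 7.83% of 27025 genes, CACGTG in 5 (17.9%, all genes 6.86%), GCGCA, any base and GCGC (NRF1) in Chchd4 and Tomm20 (7.14%, all genes 4.23%) and AAGATGGC (YY1) in none (all genes 1.83%). Timm17b and Timm17a held none of these motifs in this window. The members with CCGGAAG were Timm10, Chchd5, Tomm34, Chchd3, Timm29, Timm8b, Timm23, Timm8a2, Tomm22 and Tomm70a, of which Timm8a2 was not tested and the others had log2 fold changes of either sign. None was called on the FPKM scale, though Timm23 was lower on the TPM scale, and Tomm7 had no entry. The 27025 genes are all those of the RefSeq promoter table, detected in these cells or not, and no share was taken over tested genes only. A match of letters is a description and not a binding site.

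Timm23, the core channel, was at 137, 152 and 127 FPKM in vehicle and at 122, 128 and 114.5 in sulfatide. Sulfatide replicate 2 lay just above vehicle replicate 4 (-0.19 ± 0.09, adjusted p = 0.185). On the TPM scale it was lower (-0.30 ± 0.09, adjusted p = 0.0408), as it was after removal of the length trend (adjusted p = 0.0136). The receptor Timm50 was at 44.2, 47.2 and 41.5 FPKM in vehicle and at 54.9, 44.95 and 44.3 in sulfatide (0.11 ± 0.11, adjusted p = 0.506). Timm44, which tethers the import motor, was at 34.0, 42.1 and 39.3 FPKM and at 40.4, 34.5 and 37.4 (-0.03 ± 0.11, adjusted p = 0.849). Timm21 had the largest error of the 31 genes (0.26 ± 0.19, adjusted p = 0.350), with vehicle values of 17.9, 27.7 and 17.6 FPKM, and its adjusted p was 0.0464 without vehicle replicate 3.

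All 8 Chchd genes were tested and none passed by limma, 2 of them (Chchd1 and Chchd10) at an unadjusted p below 0.05. Chchd4, which encodes MIA40, was at 68.2, 71.3 and 58.6 FPKM in vehicle and at 69.2, 70.5 and 64.2 in sulfatide (0.05 ± 0.10, adjusted p = 0.777, and -0.06 on the TPM scale). Chchd2, which is linked to respiration and stress responses, was the most abundant of all 33 genes, at 697 ± 73.8 FPKM after vehicle and 807 ± 94.7 after sulfatide (SD, n = 3 each, adjusted p = 0.225). Its relative Chchd10 was far lower, at 13.6, 18.2 and 15.2 FPKM in vehicle and at 23.5, 19.5 and 18.9 in sulfatide, without overlap (0.38 ± 0.13, adjusted p = 0.0757, and 0.0256 without vehicle replicate 3). Chchd1 was at 116 ± 19.8 and 141 ± 6.47 FPKM (adjusted p = 0.116, and 0.0122 without vehicle replicate 3) and Chchd7 at 51.2 ± 12.8 and 65.8 ± 10.3 FPKM (adjusted p = 0.172, and 0.0162 without it). The MICOS gene Chchd3 was at 63.4 ± 4.29 and 65.2 ± 4.89 FPKM, and its log2 fold change turned from 0.04 to -0.07 on the TPM scale. Chchd5 and Chchd6 had adjusted p of 0.159 and 0.292.

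Other genes of the import pathway came from lists chosen with earlier results of these data known. Over all genes tested 8.31% were called higher and 10.4% lower, which is the background of the calls in each of the lists below. Of 23 tested genes for further import machinery, 3 rose and none fell (9 and 0 at an unadjusted p below 0.05, beside 18% and 15.8% of all genes), with a median log2 fold change of 0.19 (0.08 on the TPM scale). These were Romo1 (170 ± 21.6 to 236 ± 28.0 FPKM, adjusted p = 0.0248), which encodes a small inner membrane protein, Mtch1 (115 ± 7.95 to 139 ± 2.29, adjusted p = 0.0464) and Immp1l (33.3 ± 8.42 to 49.95 ± 8.48, adjusted p = 0.0492), which encodes a peptidase of the inner membrane. Mipep, the intermediate peptidase of the matrix, came next with an adjusted p of 0.0523. Leaving out single libraries raised adjusted p to as much as 0.101 for Romo1, 0.176 for Mtch1 and 0.166 for Immp1l, in each case without vehicle replicate 2. Without vehicle replicate 4, sulfatide replicate 1 or sulfatide replicate 3 it was also above 0.05 in all 3 genes (0.0683 to 0.0842 for Romo1, 0.119 to 0.142 for Mtch1 and 0.0918 to 0.153 for Immp1l), and without sulfatide replicate 2 in Mtch1 (0.0768) and Immp1l (0.0560). On the TPM scale only Romo1 of the list was called (adjusted p = 0.0439), and after removal of the length trend its adjusted p was 0.0966.

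The import motor and its partners did not pass. Hspa9, the matrix Hsp70 that pulls proteins in, was at 238 ± 18.1 FPKM after vehicle and 242 ± 19.8 after sulfatide (adjusted p = 0.907). Its exchange factor Grpel1 was at 138 ± 9.54 and 160.1 ± 8.75 FPKM without overlap (adjusted p = 0.124), and its co-chaperone Pam16 at 56.9 ± 7.82 and 67.3 ± 13.9 FPKM (adjusted p = 0.352). Samm50, the outer membrane insertase for barrel proteins, was at 107 ± 7.46 and 114 ± 6.86 FPKM (adjusted p = 0.527). Gfer, which reoxidizes MIA40, did not overlap between groups (21.1 ± 1.59 and 25.8 ± 2.79 FPKM, adjusted p = 0.114).

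Of 17 genes for folding and quality control in mitochondria, 1 rose and none fell (3 and 1 at an unadjusted p below 0.05). It was Afg3l2, a subunit of the matrix AAA protease, at 45.5, 44.9 and 47.0 FPKM in vehicle and at 64.9, 67.3 and 64.8 in sulfatide (1.44-fold, adjusted p = 0.00232). Its partner subunit Spg7 had lower values in each sulfatide library (21.9 ± 1.80 and 17.9 ± 1.71 FPKM, adjusted p = 0.105, and 0.0337 on the TPM scale), and the difference between the pair was not tested. Pink1 and Clpp had adjusted p of 0.0699 and 0.142. The chaperonin genes Hspd1 (189 ± 18.3 and 179 ± 6.21 FPKM, adjusted p = 0.599) and Hspe1 (368 ± 66.9 and 384 ± 34.6, adjusted p = 0.733) did not pass.

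Of 14 genes for substrates of the twin CX9C pathway, 3 rose and 1 fell (9 and 1 at an unadjusted p below 0.05, beside 18% and 15.8% of all genes). Coa6, a copper-handling assembly factor of cytochrome oxidase, rose from 50.9 ± 8.77 to 72.1 ± 4.45 FPKM (adjusted p = 0.0226), and Cmc2, also an assembly factor, from 29.3 ± 11.6 to 53.8 ± 10.0 FPKM (adjusted p = 0.0392). Uqcrh, the hinge subunit of complex III, rose from 710 ± 65.3 to 932 ± 120 FPKM (adjusted p = 0.0444). Coa5 fell, from 98.2, 98.1 and 88.0 FPKM in vehicle to 60.8, 72.2 and 67.2 in sulfatide (adjusted p = 0.00693), and was called under all 17 alternatives. Without vehicle replicate 2 adjusted p was 0.101 for Coa6, 0.109 for Cmc2 and 0.167 for Uqcrh. Without vehicle replicate 4, sulfatide replicate 1 or sulfatide replicate 3 it was 0.0718 to 0.0777 for Coa6, 0.0593 to 0.113 for Cmc2 and 0.131 to 0.147 for Uqcrh, and without sulfatide replicate 2 it was 0.0739 for Cmc2. On the TPM scale adjusted p was 0.0396 for Coa6, 0.0529 for Cmc2 and 0.0911 for Uqcrh, and after removal of the length trend 0.0646, 0.0736 and 0.446. None of the 7 MICOS and related cristae genes found in the table passed by limma (2 higher and 0 lower at an unadjusted p below 0.05), with Micos13 (adjusted p = 0.0569) and Micos10 (0.0727) nearest, followed by Apool (0.410) and Opa1 (0.515). Without vehicle replicate 3 the adjusted p was 0.00847 for Micos13 and 0.00202 for Micos10. With any other single library left out it was 0.0868 to 0.212 for Micos13 and 0.0855 to 0.257 for Micos10.

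Of 8 tested regulators of mitochondrial biogenesis none rose and 1, Myc, fell (0 and 1 at an unadjusted p below 0.05). It went from 14.2, 13.9 and 15.0 FPKM in vehicle to 6.79, 10.7 and 6.32 in sulfatide (1.81-fold lower, adjusted p = 0.0117). Nrf1 (16.4 ± 0.872 and 17.7 ± 0.742 FPKM, adjusted p = 0.477), Esrra (0.166, and 0.0315 on the TPM scale, where it was lower) and Pprc1 (0.455) did not pass. Of 20 cell cycle genes tested, 7 rose (Birc5 and Plk1 among them) and none fell, where 8.31% and 10.4% of all genes tested did. At an unadjusted p below 0.05 by limma 12 were higher and 0 lower, beside 18% and 15.8% of all genes. Their median log2 fold change was 0.74 (0.63 on the TPM scale). The summed level of the 20 overlapped between groups, at 778 to 1174 FPKM in vehicle and 1121 to 1733 in sulfatide. The part of the cell cycle in the levels of import genes was not tested. The 11 neutrophil markers summed to 158 to 211 FPKM in vehicle and 432 to 583 in sulfatide, and most of that sum was S100a8, the 1 of 5 tested to pass (91.7 to 113.7 FPKM in vehicle, 361 to 471 in sulfatide). Without S100a8 the sums overlapped (66.3 to 97.4 and 71.5 to 112 FPKM). Log2 fold changes were 0.33 for Csf3r, -0.15 for S100a9, -0.24 for Ngp and -0.45 for Camp, of which Camp was lower on the TPM scale. The part of these markers was not tested either.

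Transcript length moved with the log2 fold changes. Across the 31 genes Spearman's rho between length and log2 fold change was -0.56, and across 10301 tested genes with a length it was -0.30. These are descriptions over genes that share the same 6 libraries. The 8 members of up to 700 nucleotides had a median log2 fold change of 0.29, and all 360 genes of that length had 0.30. For the 7 members of 1000 to 1500 nucleotides the median was 0.27 beside 0.15 over 1257 genes, and for the 7 of 1500 to 2500 it was 0.16 beside 0.07 over 2737 genes. The median of the 3 members of 700 to 1000 nucleotides equalled that of their class (0.21 and 0.21). The median of the 4 members of 2500 to 4000 was above that of their class (0.09 and -0.02). For the 2 beyond 4000 it was below (-0.12 and -0.07). Single members could lie on the other side of the class median, as Timm29 (-0.22, at 3170 nucleotides) and Tomm70a (0.03, at 5964 nucleotides) did. Timm23, at 777 nucleotides, lay below its length class (-0.19 against 0.21), and Timm17b, at 2381 nucleotides, above its own (0.42 against 0.07). After a trend on length had been removed from each library, Timm10b, Tomm6, Tomm7 and Timm17b were called higher (6.67% of all genes) and Timm23 lower (10.9%). The part of length in the other differences was not tested.

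Other mitochondrial gene sets gave values of a similar size. Of 78 tested genes for mitochondrial ribosomal proteins 9 rose and none fell (median log2 fold change 0.18), and of 40 tested genes for complex I 10 rose and none fell (median 0.27). Rescaled to TPM, these counts were 6 and 0 (median 0.07) and 3 and 0 (median 0.16). Over all genes tested 8.31% rose and 10.4% fell (median 0.04), and on the TPM scale 4.49% and 14.7% (median -0.06). The differences between these sets and the import genes were not tested.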

How the data were processed

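The authors deposited 1 table of FPKM values, rounded to 2 decimals, for 22800 gene symbols. TRIzol-extracted RNA was poly(A)-selected and sequenced as strand-specific paired-end libraries, per the labels' protocols. Per the submitters' processing notes, mm10 was the build. Aligner, counter, annotation and any use of strand in counting were not given in the sources used here. Groups and replicate numbers came from sample titles. Another 3 value columns could be matched to none of the samples and were left out.

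FPKM are not counts. Log2(FPKM + 1) values of 10405 genes with at least 1 FPKM in at least 3 libraries were fitted by limma 3.58.1 under R 4.3.3 (eBayes with an intensity trend, 2-sided, Benjamini-Hochberg over all genes tested, called below 0.05). The fit was tested on simulated data. These were drawn independently for each gene and library, with no shift shared by the genes of a library, so the test did not cover such shifts. Log2 fold changes are given ± SE and understate changes of low genes; folds are ratios of group means. Absolute depth is unknown; relative to vehicle replicate 2 it was about 0.849 to 1.20, from the most frequent ratio of low values. Lengths (medians over coding transcripts) were found in GENCODE M21 for 97.0% of genes. The direction of the RefSeq promoter entries was checked against the transcripts (26 of 28 members matched). Members and lists were chosen with earlier results of these data known. Called members, 9 further members (Tomm20, Tomm22, Tomm40, Tomm70a, Timm22, Timm23, Timm44, Timm50 and Chchd4), up to 4 genes per list with the smallest p, and 7 other genes (Hspa9, Pam16, Grpel1, Samm50, Gfer, Hspd1 and Hspe1) were named by rule; other genes given with values in each library were chosen after their values were seen. Alternatives were other pseudocounts, filters, scalings, library weights, no intensity trend, the replicate block and leaving out each library; removal of the length trend was added after seeing the data.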

Additional observations from a re-analysis of the deposited data

How the results depend on the processing

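Pseudocounts of 0.1 and 0.5, a filter at 5 FPKM and centring on library medians left 5 to 6 import genes called higher and none lower. The number called higher was 3 with no filter on low values, 3 with no intensity trend, 2 on the TPM scale (with 2 lower), 8 after quantile normalization and 16 with array weights (with 1 lower), and 1 was called lower without the length trend. Leaving out single libraries gave 1 to 13. A replicate block, in which the shared numbers 2 and 3 determine the contrast, left 1 gene (Timm10b) called. Libraries with the same number correlated at 0.156 (replicate 2) and -0.303 (replicate 3) in their deviations from group means. These values cannot show whether a number marks a shared batch. Nothing in the labels says that it does, so the numbers were not taken to pair libraries. Over all genes, 865 rose and 1078 fell as reported. With the block 297 rose and 635 fell, with array weights 2054 and 1723, and on the TPM scale 467 and 1527. With no filter the counts were 522 and 915 of 15223 genes, and with a filter at 5 FPKM 785 and 956 of 8050. Without the length trend they were 694 and 1136, and with no intensity trend 723 and 1008. Quantile normalization gave 1089 and 1088, and centring on library medians 1077 and 1079. A pseudocount of 0.1 gave 843 and 1067, and 1 of 0.5 gave 866 and 1076. With single libraries left out, 268 to 1421 rose and 642 to 1135 fell. The median log2 fold change of the import genes was 0.124 on the TPM scale, 0.107 with the block and 0.101 without the length trend, and 0.166 to 0.313 when single libraries were left out.

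Some log2 fold changes changed sign, and the cause was not tested. Among them were Timm8b (0.289), Timm13 (0.247), Timm10 (0.231) and Pam16 (0.226), which were not near 0 as reported. On the TPM scale values were -0.0699 for Chchd3, -0.0647 for Chchd4, -0.0778 for Tomm70a, -0.00698 for Opa1, -0.00199 for Nrf1, -0.0917 for Hspa9, -0.0247 for Samm50 and -0.0404 for Hspe1. With the block they were -0.0391 for Chchd3, -0.0507 for Chchd4, -0.0329 for Timm50, -0.0785 for Tomm70a, -0.0411 for Hspa9, -0.00094 for Pam16 and -0.0661 for Hspe1. Without the length trend they were -0.0298 for Timm10, -0.0736 for Chchd3, -0.00294 for Timm8b, -0.0372 for Timm13, -0.0165 for Tomm22, -0.0429 for Pam16 and -0.154 for Hspe1. Array weights gave -0.00381 for Chchd4, 0.0559 for Timm44 and -0.0438 for Hspa9, and quantile normalization 0.00808 for Tomm40. With single libraries left out, ranges that crossed 0 were -0.0145 to 0.0943 for Chchd3, -0.0375 to 0.102 for Chchd4, -0.0778 to 0.0307 for Tomm40, -0.119 to 0.0311 for Timm44, -0.0362 to 0.121 for Tomm70a, -0.0427 to 0.0774 for Hspa9, -0.127 to 0.00227 for Hspd1 and -0.0079 to 0.215 for Hspe1. Absolute depth is unknown, so precision from counting could not be given. With 3 libraries a group, no exact permutation test could reach 0.05.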
